A study of Mus musculus with 6 samples.

Results

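Gene expression was examined for 40 genes that encode cytokines, chemokines, their receptors and the NF-kB response machinery of keratinocytes. They were chosen by name, and each of the 40 matched 1 of the 22295 genes of the count table by its gene symbol. Measured values played no part in the match, but the list was chosen with earlier results of these data known. RNA had been sequenced from GFP-positive keratinocytes, sorted by FACS from the epidermis of mice given a short course of the carcinogen DMBA and the phorbol ester TPA. The 3 WT libraries came from K19(Cre-ERT); mTmG mice and the 3 KO libraries from mice that carried Itga3 fl/fl in addition to K19(Cre-ERT) and mTmG, both bred on FVB, and the comparison asks how these genes differ with integrin α3, the product of *Itga3*. Both groups carried the Cre and the reporter and received tamoxifen over 4 days (10 mg/ml in the sample labels, at 6 weeks of age), 1 dose of 30 μg DMBA at 7 weeks and TPA (12.34 μg an application) for 2 weeks. For tamoxifen, the study's methods give another dose, an earlier start and added topical doses. The table names the genotype of each column and not the sample, and the letters a to c only tell the libraries of a genotype apart. No untreated library is among the 6, so every level below is a level after DMBA/TPA.

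The K19 promoter directs the tamoxifen-inducible Cre to the hair bulge (HB), so GFP marks HB cells and their progeny, and the study describes recombination over the whole bulge as inefficient but deletion in the sorted type of cell, the GFP-positive one, as efficient. Library totals ran from 20578309 to 23670507 counts, with scaling factors of 0.981 to 1.03. *Itga3* itself fell in KO, from 371, 252 and 271 CPM to 131, 124 and 134 CPM (counts scaled to library size with TMM factors), a log2 fold change of −1.20 (SE 0.13, edgeR adjusted p = 0.00283). Without KO a that adjusted p was 0.0934, and without WT c 0.130. Keratinocyte genes were abundant in every library, with 32195 to 49329 CPM summed over 8 markers. Krt5 reached 23976, 14267 and 20971 CPM in WT and 17883, 21071 and 19194 CPM in KO, while Krt19 had only 2.20 to 4.77 CPM. Krt14 (5152 to 7434 CPM), Krt15 (9616 to 15459 CPM), Trp63 and Itga6 were abundant in both groups as well. *Lgr5*, a bulge stem cell marker, had 695, 463 and 600.4 CPM in WT and 362, 530.2 and 381 CPM in KO, with overlap (log2 fold change −0.47, unadjusted p = 0.0167, adjusted p = 0.283). *Cd34*, a bulge marker, fell by 0.72 on the log2 scale (edgeR adjusted p = 0.0462, with the call lost without KO a, KO c, WT b or WT c, at 0.0685 to 0.379).

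NF-kB is a family of dimeric transcription factors that waits in the cytoplasm bound to inhibitors of the IκB type. Signals from TNF, IL-1, Toll-like receptors or protein kinase C, which phorbol esters activate, lead to degradation of the inhibitor, and the freed factor switches on cytokines, chemokines and adhesion molecules. Among its targets are its own brakes, such as *Nfkbia* and *Tnfaip3*, which close the loop within hours. Keratinocytes use this system together with the STAT3 route of the IL-6 family to call immune cells into wounded or irritated skin.

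Promoters of the genes that passed the test are shown because they are the places where such factors could act. Each sequence holds the 250 bases before the annotated start, read 5′ to 3′ on the strand of the gene, from RefSeq (GRCm38.p6). Capitals mark a match to the kappaB consensus, the 10-base pattern that NF-kB dimers recognise. *Nfkbia* is added as the classical target of the pathway, a choice made after its values were seen. For *Tnf* the window is chr17:35202008-35202257 on the minus strand, for *Chil1* chr1:134181906-134182155 on the plus strand, and for *Nfkbia* chr12:55492648-55492897 on the minus strand.
Tnf: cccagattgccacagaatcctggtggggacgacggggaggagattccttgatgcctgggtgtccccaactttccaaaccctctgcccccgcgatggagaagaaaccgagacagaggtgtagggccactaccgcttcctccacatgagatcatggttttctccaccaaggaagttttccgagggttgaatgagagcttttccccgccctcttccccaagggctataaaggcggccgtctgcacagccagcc
Chil1: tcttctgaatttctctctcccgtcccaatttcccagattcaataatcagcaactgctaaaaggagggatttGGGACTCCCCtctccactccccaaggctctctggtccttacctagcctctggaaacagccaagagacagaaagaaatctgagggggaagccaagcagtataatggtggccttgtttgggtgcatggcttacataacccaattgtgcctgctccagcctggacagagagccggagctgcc
Nfkbia: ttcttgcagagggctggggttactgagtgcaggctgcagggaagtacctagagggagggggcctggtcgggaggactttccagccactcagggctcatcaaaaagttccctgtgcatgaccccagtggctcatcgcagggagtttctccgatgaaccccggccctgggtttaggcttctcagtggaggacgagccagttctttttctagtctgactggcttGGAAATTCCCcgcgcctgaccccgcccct

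The kappaB match began 179 bases before the start of *Chil1* and 29 bases before that of *Nfkbia*, while these letters do not occur in the *Tnf* window. Of the 40 genes, 33 had a promoter in the table, and 13 of them (39.4%) held at least 1 match in any of their windows, beside 8.23% of 27025 genes searched in the same way on both strands. An AP-1 motif, TGANTCA, was in 8 of the 33 (24.2%, beside 7.82%) and a STAT motif, TTCNNNGAA, in 5 (15.2%, beside 8.13%). The *Cxcl10* promoter held 3 kappaB matches, of which a pair overlap, and 1 AP-1 match. *Il6* had 1 of each, with the kappaB match 44 bases before its start, and *Cxcl1* and *Cxcl2* each had an overlapping pair of kappaB matches. None of the 3 motifs was in the *Cx3cl1* window. The 40 were chosen in part as NF-kB response genes, so their share of kappaB matches is no independent result. A match is a match of letters only, and none of these libraries measured binding.

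Transcripts of 37 of the 40 genes exceeded 3 counts in each of the 6 libraries, the floor taken for detection (0.128 to 0.145 CPM). *Csf2*, which encodes GM-CSF, had at most 1 count in any library and was not detected at this depth. *Il1b* and *Cxcl2* were at or below the floor in some libraries. Levels of different genes were compared per kb of exon. Highest stood *Cxcl14*, a chemokine that the epidermis makes without stimulation, with a mean of 1049 CPM per kb over the 6 libraries, at percentile 99.9 of tested genes. It was followed by *Zfp36* at 320.1 CPM per kb and *Nfkbia* at 217 CPM per kb, then by a wide step down to *Nfkbiz* at 50.4, *Stat3* at 46.8, *Chil1* at 34.5 and *Rela* at 32.0 CPM per kb. The inflammatory cytokines lay far lower. *Tnf* had 1.45 CPM per kb (percentile 49.4), *Il1a* 0.595, *Il6* 0.190, *Il1b* 0.159 and *Cxcl2* 0.145 CPM per kb. Along this order, neighbours were separate in all 6 libraries at only 3 steps, between *Cxcl14* and *Zfp36*, between *Nfkbia* and *Nfkbiz*, and between *Icam1* and *Nfkb1*. All other neighbours overlapped.

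**Figure D1:**
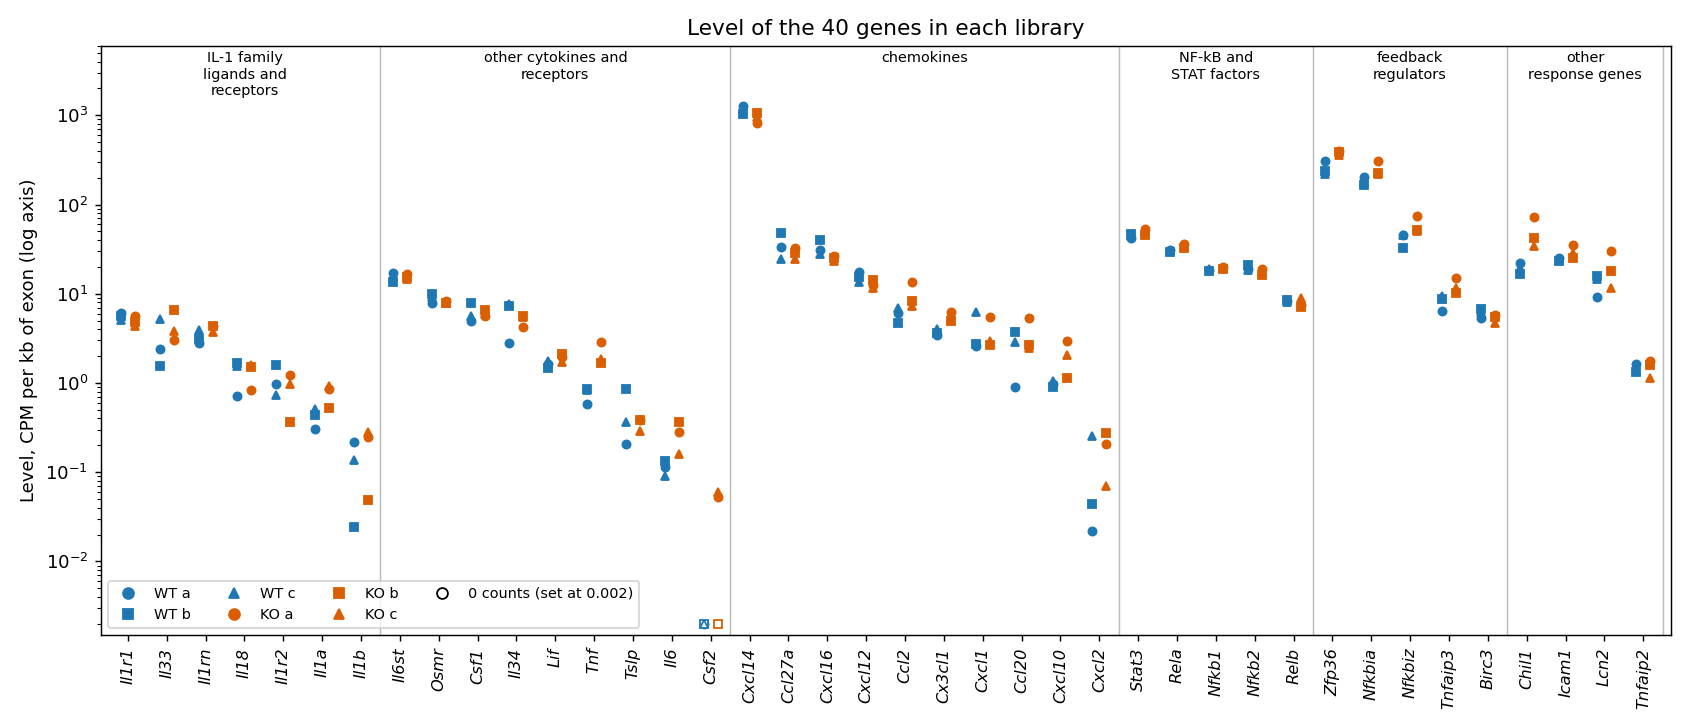
Level of each of the 40 genes in CPM per kb of exon on a log axis, grouped by role, with 1 point per library (blue for WT, orange for KO, and the shape for library a, b or c); open symbols set at 0.002 stand for 0 counts. The genes span levels from 1049 CPM per kb for Cxcl14 to under 0.2 for Il6, Il1b and Cxcl2, and within most genes the WT and KO points lie close together.

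The cells came from 3 mice of each genotype, as many as there were libraries, so a p measures the spread between mice of a genotype if each library is 1 mouse, which the labels do not state. Between the genotypes, *Tnf* and *Chil1* were the only 2 of the 40 with an adjusted p below 0.05 in edgeR, both higher in KO. Over all 21681 genes tested the same rule called 0.673% (146 genes), and 0.461% were called higher. An unadjusted p below 0.05 was found for 16 of the 40 (40%), 13 higher and 3 lower in KO, while 11.5% of all genes tested had one (5.58% higher and 5.97% lower). No library was below 10 counts for 35 of the 40, and of all genes with that property 16.5% had such a p. The 3 KO libraries lay entirely above the WT libraries for 12 of the 40 and entirely below for 1, together 13 (32.5%), beside 16.3% of all genes tested (8.03% above and 8.23% below, and 21.8% in either direction among genes with no library below 10 counts). The median log2 fold change of the 40 was 0.22, with 25 estimates higher (the undetected *Csf2* among them) and 15 lower, and the median over all genes was 8.8e-05. The median of the 40 was 0.14 without KO a and 0.10 for those kept by filterByExpr. Limma-voom called none of the 40 (0 of 40, and 0.111% of all genes), and DESeq2 called 4 (2.52% of all genes), namely *Tnf*, *Chil1*, *Cx3cl1* and *Zfp36*.

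Among cytokines outside the IL-1 family, *Tnf* (ENSMUSG00000024401, chromosome 17, 35199381 to 35202007), the prototype inflammatory cytokine, had 0.964, 1.42 and 1.37 CPM in WT a to c against 4.72, 2.72 and 3.05 CPM in KO a to c. All 3 KO libraries lay above the highest WT library, and KO a stood above the other two. Mean levels were 1.25 ± 0.249 CPM in WT and 3.50 ± 1.07 CPM in KO (SD, n = 3 each), 2.80 times the WT mean. The log2 fold change was 1.48 (SE 0.29, 95% interval 0.84 to 2.12, edgeR adjusted p = 0.0472), on 21 to 111 counts per library. Without KO a it was 1.20, with an adjusted p of 0.333. The call was also lost without KO c (0.130), WT b (0.0712) or WT c (0.368), and over 13 alternative fits the adjusted p ran from 0.00283 to 0.368.

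*Il6*, which signals through the receptor chain encoded by *Il6st*, had 0.275, 0.321 and 0.220 CPM in WT a to c against 0.680, 0.891 and 0.387 CPM in KO a to c. These levels rest on 5 to 19 counts per library. The KO values lay above the WT values, and the log2 fold change of 1.25 (SE 0.47) came with an unadjusted p of 0.0209 and an adjusted p of 0.31. *Il6st*, the common gp130 chain, was abundant at 188, 150.5 and 175 CPM in WT and 186, 172 and 161 CPM in KO, with groups that overlapped and a log2 fold change of 0.02 (95% interval −0.21 to 0.24). The oncostatin M receptor gene *Osmr* had 94.9, 121 and 113 CPM in WT and 100.4, 95.5 and 95.03 CPM in KO (log2 fold change −0.18, 95% interval −0.40 to 0.05). *Lif* (0.26), the macrophage growth factor genes *Csf1* (−0.03) and *Il34* (−0.20), and *Tslp* (−0.42), an epithelial cytokine of allergic inflammation, had log2 fold changes as given here, overlapping groups, and adjusted p from 0.604 to 0.954.

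Of 7 genes of the IL-1 family and its receptors, 2 had an unadjusted p below 0.05 (28.6%, beside 11.5% of all genes). None had an adjusted p below 0.05 (0 of 7 in edgeR, limma-voom and DESeq2). *Il1a*, the IL-1 that keratinocytes store and release on damage, had 0.597, 0.870 and 1.01 CPM in WT a to c against 1.70, 1.03 and 1.84 CPM in KO a to c. Every KO library was above every WT library, though KO b exceeded WT c by very little, and the log2 fold change was 0.88 (SE 0.34, adjusted p = 0.343) on 13 to 40 counts. *Il1rn*, whose product blocks the IL-1 receptor, had 15.4, 17.5 and 21.7 CPM in WT a to c against 24.3, 23.9 and 20.6 CPM in KO a to c. Its groups overlapped, since WT c exceeded KO c, and the log2 fold change was 0.33 (SE 0.14, adjusted p = 0.403). *Il1r1*, the signalling receptor, had 38.4, 36.05 and 32.4 CPM in WT and 36.00, 31.1 and 27.5 CPM in KO (log2 fold change −0.18, 95% interval −0.45 to 0.10). *Il33*, an alarmin kept in the nucleus, varied widely within each group, with 6.88, 4.49 and 14.9 CPM in WT and 8.71, 19.1 and 11.1 CPM in KO. The decoy receptor gene *Il1r2* (log2 fold change −0.37) and *Il18* (−0.01) overlapped between the groups, and *Il1b* had 1 to 11 counts per library and a 95% interval of −0.99 to 2.17 on the log2 scale, which also holds the value found for *Tnf*.

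Chemokines split by direction. Of 10 chemokine genes, 3 were higher and 3 lower in KO at an unadjusted p below 0.05 (beside 5.58% and 5.97% of all genes). None had an adjusted p below 0.05 in edgeR or limma-voom (0 of 10), while DESeq2 called *Cx3cl1*. The 3 that were higher attract monocytes or lymphocytes. *Cx3cl1* (chromosome 8, 94772009 to 94782423), a membrane-bound chemokine for cells with the receptor CX3CR1, had 13.4, 14.2 and 15.8 CPM in WT a to c against 24.5, 19.5 and 23.6 CPM in KO a to c. The groups were well apart, and the log2 fold change of 0.64 (SE 0.13) had an adjusted p of 0.0604 in edgeR, 0.138 in limma-voom and 0.00262 in DESeq2. *Cxcl10*, an interferon-induced T cell chemokine, had 2.20, 2.02 and 2.38 CPM in WT a to c against 6.72, 2.53 and 4.69 CPM in KO a to c. KO b was barely above the WT libraries, and the log2 fold change of 1.08 (SE 0.31, adjusted p = 0.169) was 0.71 without KO a. *Ccl2*, the main monocyte chemokine, had 6.98, 5.31 and 7.89 CPM in WT a to c against 15.3, 9.33 and 8.32 CPM in KO a to c. Again all KO libraries were above the WT libraries and KO a was far above the rest, with a log2 fold change of 0.71 (SE 0.24, adjusted p = 0.241) that became 0.39 without KO a.

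The chemokine genes with lower values in KO were 3 of the 4 most abundant of the group per kb of exon. *Cxcl14* (chromosome 13, 56288647 to 56296551) had 2330.2, 1876 and 2115 CPM in WT a to c against 1497, 1922 and 1755 CPM in KO a to c. Its KO b value exceeded WT b, and the log2 fold change was −0.29 (SE 0.12, adjusted p = 0.395). *Cxcl12*, the ligand of CXCR4, had 144, 126 and 111 CPM in WT a to c against 102, 116 and 94.3 CPM in KO a to c, also with overlap, and a log2 fold change of −0.28 (SE 0.12, adjusted p = 0.366) that became −0.18 without WT a. *Cxcl16*, a membrane-bound chemokine for CXCR6, had 92.8, 120.3 and 84.5 CPM in WT a to c against 79.6, 76.96 and 70.1 CPM in KO a to c. It was the only gene of the 40 with all KO libraries below all WT libraries, and its log2 fold change was −0.39 (SE 0.13, adjusted p = 0.212), or −0.23 without WT b. *Ccl27a*, a skin chemokine for CCR10, overlapped at 79.03, 115 and 57.9 CPM in WT and 77.4, 68.00 and 58.1 CPM in KO. Of its windows of 65 bases, the read length, 37.6% occur in the transcript of another gene, so its counts of unique reads are uncertain. Such windows made up at most 5.07% in any other of the 40 genes (*Cxcl2*, shared with *Cxcl3*). *Cxcl1* and *Ccl20*, neutrophil and T cell chemokines, had log2 fold changes of −0.06 and 0.48 with wide overlap, and *Cxcl2* was near the floor.

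**Figure D2:**
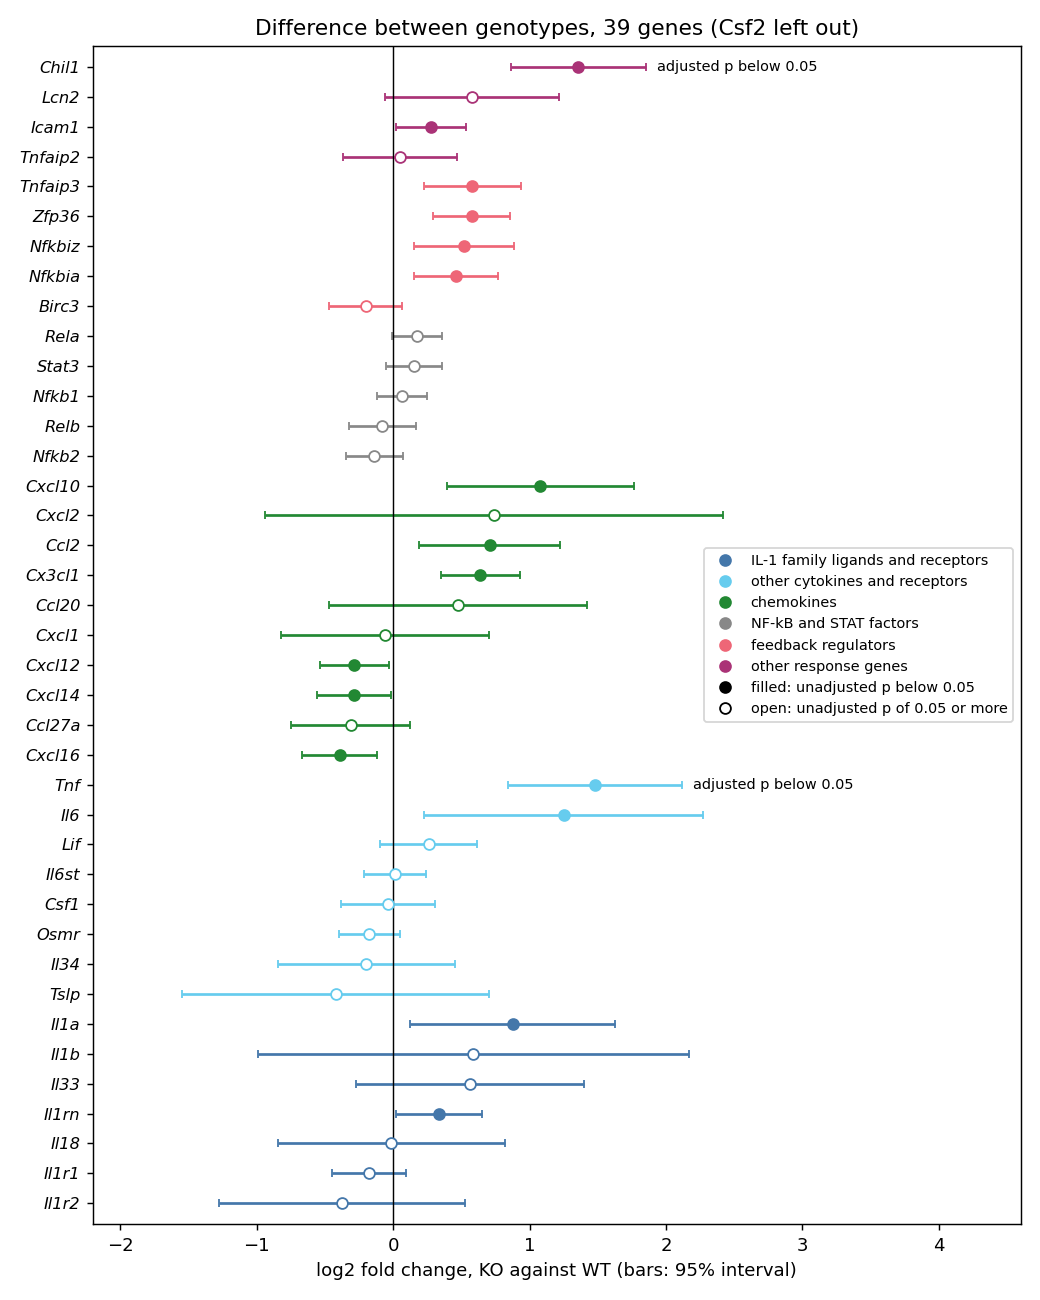
Log2 fold change of KO against WT for 39 of the 40 genes by role, with 95% intervals (n = 3 libraries per genotype); filled points have an unadjusted p below 0.05. Tnf at 1.48 and Chil1 at 1.36 carry the mark of an adjusted p below 0.05, the 5 NF-kB and STAT factors lie close to 0, and Csf2 is left out because it was not detected.

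Genes of the transcription factors themselves differed little. None of the 5 had an unadjusted p below 0.05 (0 of 5), and the log2 fold changes lay between −0.14 for *Nfkb2* and 0.17 for *Rela*. *Stat3*, the factor downstream of gp130, had 404, 442 and 421 CPM in WT and 503, 439.8 and 467 CPM in KO, with overlap and a 95% interval of −0.05 to 0.36 for the log2 fold change. *Rela*, which encodes the p65 subunit, had 94.9, 90.3 and 91.8 CPM in WT and 109.7, 99.1 and 104 CPM in KO. Its KO libraries were all above its WT libraries, but by 0.17 on the log2 scale (95% interval −0.01 to 0.36, unadjusted p = 0.0639). *Nfkb1* and *Relb* had intervals that included 0, from −0.12 to 0.25 and from −0.33 to 0.17.

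Of the feedback regulators, 4 of 5 were higher in every KO library than in any WT library, beside 8.03% of all genes tested. Among genes with no library below 10 counts, which include these 5, 21.8% did not overlap in either direction. The 4 regulators had unadjusted p from 0.00085 to 0.0094. Yet none reached an adjusted p below 0.05 in edgeR or limma-voom (0 of 5), and DESeq2 called *Zfp36*. *Zfp36* (chromosome 7, 28376784 to 28379255), whose product tristetraprolin speeds the decay of cytokine mRNAs, had 1082, 820.2 and 773 CPM in WT a to c against 1396, 1341 and 1252 CPM in KO a to c. The 3 KO values were close to each other, and the log2 fold change was 0.58 (SE 0.13, edgeR adjusted p = 0.0722). *Nfkbia* (chromosome 12, 55489411 to 55492647), which encodes the inhibitor IκBα, had 332, 266 and 286 CPM in WT a to c against 500.4, 362 and 354 CPM in KO a to c. KO a was far above the other libraries, KO b and KO c only a little above WT a, and the log2 fold change was 0.46 (SE 0.14, adjusted p = 0.187), or 0.28 without KO a (adjusted p = 0.646). For *Tnfaip3*, which encodes the ubiquitin-editing enzyme A20, the levels were 45.98, 63.6 and 68.3 CPM in WT a to c against 109, 73.3 and 84.2 CPM in KO a to c. The log2 fold change was 0.58 (SE 0.16, adjusted p = 0.152). *Nfkbiz*, an atypical IκB that works in the nucleus, had 231, 162 and 230.0 CPM in WT a to c against 378, 261 and 256 CPM in KO a to c, a log2 fold change of 0.52 (SE 0.17, adjusted p = 0.219) that became 0.31 without KO a (adjusted p = 0.75). *Birc3*, an inhibitor of apoptosis, stood apart from these with −0.20 (95% interval −0.47 to 0.07) and overlapping groups.

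Among the remaining response genes, *Chil1* (ENSMUSG00000064246, chromosome 1, 134182176 to 134190181) encodes a secreted chitinase-like protein. It had 62.7, 46.4 and 54.2 CPM in WT a to c against 204, 117 and 96.5 CPM in KO a to c. It thus rose in each KO library, to 139 ± 56.98 CPM from 54.4 ± 8.17 CPM in WT (SD, n = 3 each), 2.56 times the WT mean. Its log2 fold change of 1.36 (SE 0.23, 95% interval 0.86 to 1.85, edgeR adjusted p = 0.0251) rested on 1012 to 4799 counts per library. Without KO a it was 0.97, with an adjusted p of 0.111. The call was also lost without WT b (0.0743) or WT c (0.368), and over 13 alternative fits the adjusted p ran from 8.58e-06 to 0.368. The adhesion molecule gene *Icam1* had 111, 100.5 and 107 CPM in WT a to c against 153, 109.8 and 125 CPM in KO a to c. WT a exceeded KO b there, and the log2 fold change was 0.28 (SE 0.12, adjusted p = 0.384), falling to 0.14 without KO a (adjusted p = 0.799). *Lcn2*, an iron-binding defence protein, ranged from 24.1, 41.9 and 38.9 CPM in WT to 79.8, 46.9 and 30.1 CPM in KO with overlap, and *Tnfaip2* had a log2 fold change of 0.05.

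Library KO a stood above the others in many of these genes. It was the highest of the 6 libraries for 17 of the 40 genes, beside 18.4% of all genes tested. At an unadjusted p below 0.05, 13 were higher in KO, with KO a highest for 11, KO b for 1 and KO c for 1. These 13 were picked for high KO values, so the 18.4% is no fitting share for them. KO a was then left out, an omission singled out after the data were seen. In that edgeR fit 0 of the 40 were called, and 10 of all 21328 genes tested. Of the 40, 9 had an unadjusted p below 0.05, and the 16 genes kept their direction. The loss of calls was not particular to KO a. Omitting WT c instead left 0 of the 40 and 5 of 21301 genes called, and omitting WT b left 0 of the 40 and 123 of 21255. KO a also had the most counts (23670507). The part of this library in each difference beyond these values was not tested.

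**Figure D3:**
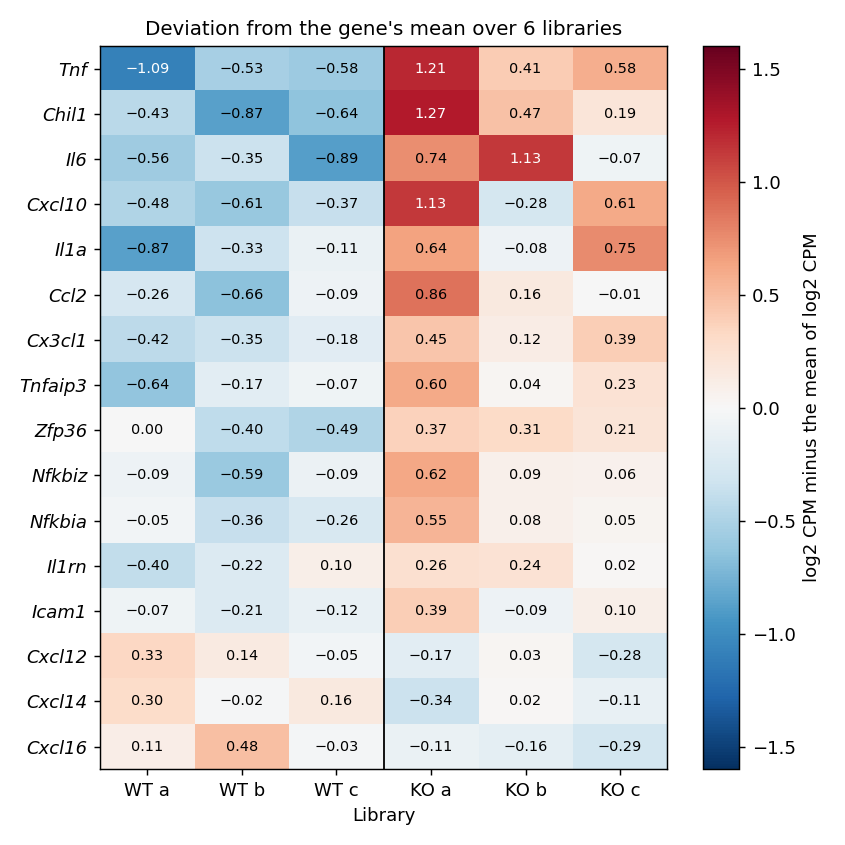
Deviation of log2 CPM from the mean of each gene over the 6 libraries, for the 16 genes with an unadjusted p below 0.05; red is above and blue below the mean. KO a shows the deepest red for most of the genes that were higher in KO, such as 1.21 for Tnf and 1.27 for Chil1, and the lower 3 rows are the chemokines with lower values in KO.

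Cells other than keratinocytes also make these cytokines, so markers of 4 other cell types were measured. In bulk RNA, fewer cells of a type and less RNA per cell cannot be told apart. The 17 immune cell markers in the table (of 18 listed) summed to 15.3 to 21.5 CPM in WT and 14.5 to 22.2 CPM in KO. None had an unadjusted p below 0.05. *Ptprc*, the pan-leukocyte marker CD45, had 0.170 to 0.629 CPM, the macrophage gene *Lyz2* was at 0 counts in 5 of the 6 libraries, and *Adgre1* and *Csf3r* never rose above 0.176 CPM. *Cd74*, the most abundant of the list, had 6.98, 4.44 and 9.04 CPM in WT and 5.27, 7.50 and 7.83 CPM in KO. The lowest sum, 14.5 CPM, was that of KO a, with *Cd74* the largest share of it. The part of immune cell RNA in the cytokine values was not tested.

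Fibroblast markers (8 of 8 in the table) summed to 122 to 184 CPM in WT and 55.9 to 91.5 CPM in KO. The groups did not overlap, and 5 of the 8 had an unadjusted p below 0.05, 3 lower and 2 higher in KO (62.5%, beside 11.5% of all genes). *Col1a1*, the most abundant of the list, had 123, 40.4 and 92.9 CPM in WT and 26.9, 46.2 and 39.3 CPM in KO (log2 fold change −1.19, adjusted p = 0.127). *Col1a2* had a log2 fold change of −1.18 (adjusted p = 0.0555), and these collagen genes made up most of the sum. *Dcn* went the other way, with 0.826, 1.69 and 0.573 CPM in WT a to c against 5.44, 1.55 and 4.11 CPM in KO a to c (log2 fold change 1.84, edgeR adjusted p = 0.113, DESeq2 adjusted p = 0.0161), and was highest in KO a. In the same list, *Col3a1* was at 0 counts in 4 libraries and *Lum* was at or under 0.141 CPM. *Cxcl12* and *Csf1*, which fibroblasts also express, are to be read beside these values, and the part of fibroblast RNA in them was not tested. Endothelial markers (6 in the table, *Cldn5* at 0 in every library) summed to 5.56 to 8.67 CPM in WT and 3.70 to 4.97 CPM in KO, with a log2 fold change of −1.49 for *Tek* (adjusted p = 0.0708) and one of 0.64 for *Pecam1* (adjusted p = 0.411), whose KO libraries were all above its WT libraries. These were the 2 of the list with an unadjusted p below 0.05. Melanocyte markers (6 of 6) summed to 6.93 to 14.4 CPM in WT and 11.6 to 12.7 CPM in KO, with *Dct* the most abundant. Over these 4 lists edgeR called 0 of 36 genes tested, limma-voom 0 and DESeq2 3. An unadjusted p below 0.05 was found for 7 (19.4%, beside 11.5% of all genes).

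A list of 8 immediate early genes, which respond to stress and to handling of cells within minutes, was added after the data were seen. All 8 estimates were higher in KO, and 2 (25%, beside 11.5% of all genes) had an unadjusted p below 0.05 (*Junb* and *Atf3*). With all 6 libraries none had an adjusted p below 0.05 (0 of 8 in edgeR, limma-voom and DESeq2). With 1 library left out, *Fos* (0.0175), *Fosb* (0.0329), *Junb* (0.0115), *Egr1* (0.0370) and *Atf3* (0.0187) each had an adjusted p below 0.05 in 1 edgeR fit. *Jun*, *Ier2* and *Dusp1* had one in no such fit. The summed level of the 8 was 7055 to 14035 CPM in WT and 11219 to 13538 CPM in KO. The highest sum was that of WT a, while *Junb* and *Atf3* were highest in KO a (724 and 1225 CPM, beside 672 and 967 CPM in WT a). *Zfp36* and *Nfkbiz* are themselves rapid response genes, and the part of such a response in their differences was not tested.

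The wider pathways were read from 5 lists with 109 genes, 108 of them in the table and 107 tested. One gene, *Socs3*, was called (beside 0.673% of all genes). An unadjusted p below 0.05 was found for 24 (22.4%), 14 higher and 10 lower in KO. Of all genes tested 11.5% had one, and 16.5% of genes with no library below 10 counts. The median log2 fold change of the 107 was 0.02. Limma-voom called 0 and DESeq2 3.

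*Socs3* belongs to the list of IL-6, TSLP and IL-17 receptors and JAK-STAT genes, as the feedback inhibitor that STAT3 induces. It had 254, 208 and 245 CPM in WT a to c against 323, 332 and 379 CPM in KO a to c. All KO libraries were above all WT libraries, with KO c the highest, and the log2 fold change was 0.55 (SE 0.11, edgeR adjusted p = 0.0453). Without KO a it was 0.59, with an adjusted p of 0.25, and the call held without WT a alone among the 6 omissions. In this list 7 of 21 genes (33.3%) had an unadjusted p below 0.05, with 4 higher and 3 lower. The share was 11.5% of all genes and 16.5% of genes with no library below 10 counts. The 4 higher genes included the other feedback inhibitors *Cish* (0.66, adjusted p = 0.0708) and *Socs1* (0.56). The 3 lower ones were receptor chains, *Lifr* (−0.50), *Il20rb* (−0.37) and *Il22ra1* (−0.31). Of the 21 estimates, 6 were higher and 15 lower in KO, with a median of −0.10. The groups did not overlap for 10 of the 21 (47.6%, beside 16.3% of all genes), 4 higher and 6 lower in KO.

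In the list of NF-kB core genes and regulators, 7 of 24 (29.2%) had an unadjusted p below 0.05. The share was 11.5% of all genes and 16.5% of genes with no library below 10 counts. Of the 24, 0 had an adjusted p below 0.05 in edgeR (DESeq2 called 1). The smallest p belonged to *Traf1*, an adaptor of TNF receptors and itself an NF-kB target, with 2.80, 4.21 and 2.95 CPM in WT a to c against 1.02, 1.45 and 1.40 CPM in KO a to c. It was lower in every KO library, opposite to *Tnf*, with a log2 fold change of −1.36 (SE 0.27, adjusted p = 0.0506, 24 to 92 counts). *Nfkbie* (−0.51) and *Ikbkg* (−0.23) were lower too, while *Bcl3* (0.59), *Zfp36l1* (0.36), *Zc3h12a* (0.33) and *Bcl10* (0.30) were higher. The kinase genes *Ikbkb* and *Chuk* were not among those with an unadjusted p below 0.05.

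Of 26 genes of IL-1, TLR and TNF signalling, 2 had an unadjusted p below 0.05 (7.69%, under the 11.5% of all genes), *Il18r1* with −0.69 (adjusted p = 0.387) and *Myd88* with 0.30. The TNF receptor gene *Tnfrsf1a* stood at 389, 407 and 381 CPM in WT and 379, 389.8 and 371 CPM in KO. Of 14 chemokine receptor and shedding genes tested, 1 did, the scavenging receptor gene *Ackr4*, with 257, 117 and 182 CPM in WT and 111, 154 and 90.4 CPM in KO (log2 fold change −0.65, adjusted p = 0.319, and −0.33 without WT a). In 4 of the 14 no library exceeded 3 counts.

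Among other NF-kB target genes, 22 were tested. At an unadjusted p below 0.05, 5 were higher and 2 lower in KO (together 31.8%, beside 11.5% of all genes). The median log2 fold change was 0.48 and none was called (0 of 22 in edgeR, limma-voom and DESeq2). Of the 23 genes listed, 14 were above the detection floor in every library, and 6 were at or below it in every library. The median therefore includes genes near the floor. The groups did not overlap for 2 of the 22 (9.09%, beside 16.3% of all genes), 2 higher and 0 lower in KO. *Plau*, the urokinase gene, had the smallest p, at 25.9, 32.3 and 36.99 CPM in WT and 44.9, 42.7 and 38.8 CPM in KO (log2 fold change 0.41, adjusted p = 0.227). The alarmin genes *S100a8* and *S100a9* had log2 fold changes of 0.95 and 0.85 with WT c overlapping KO c, and *Il19* and *Il36b* had 0.86 and 0.69. *Mmp9* (−1.96) and *Cflar* (−0.33) were lower.

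**Figure D4:**
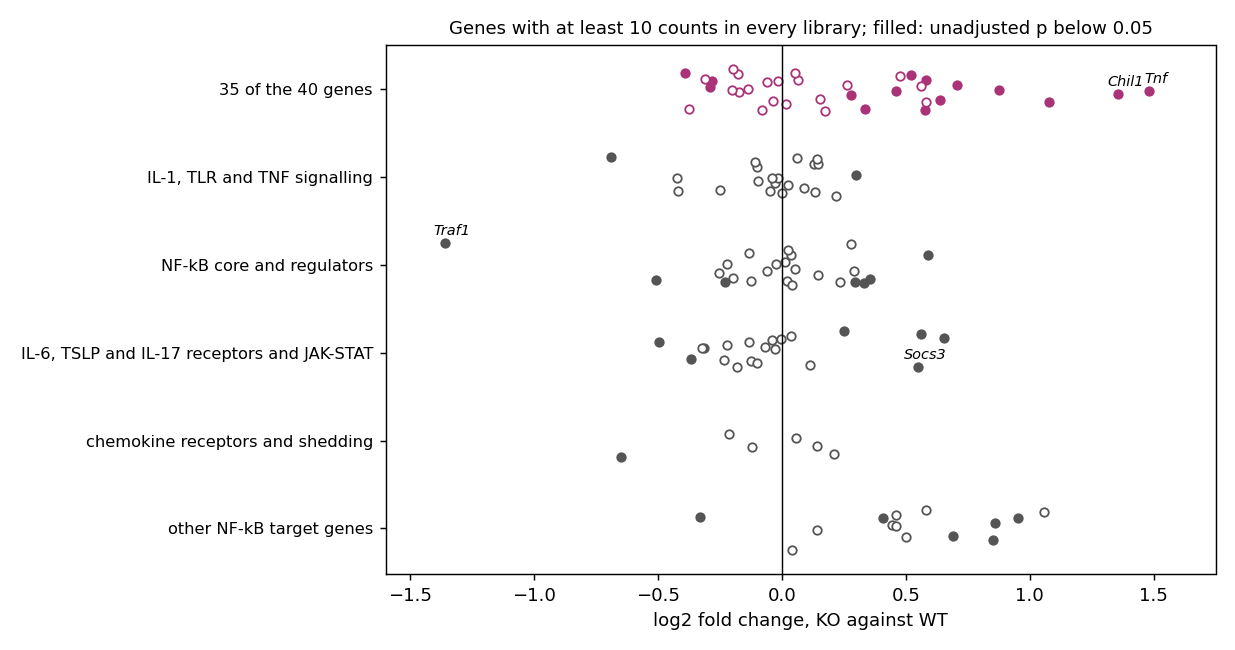
Log2 fold change of KO against WT for genes that had no library below 10 counts, in 35 of the 40 genes and in each of the 5 pathway lists; filled points have an unadjusted p below 0.05 and named points an adjusted p below 0.06. Tnf and Chil1 lie farthest to the right, Socs3 at 0.55 is the called pathway gene, and Traf1 lies at −1.36.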

How the data were processed

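Total RNA of GFP-positive epidermal keratinocytes, 3 WT and 3 KO libraries, had been sequenced from strand-specific TruSeq mRNA libraries. The authors aligned the reads with TopHat 2.1.0 and Bowtie 1.1 (versions per the submitters' processing notes) to the GRCm38 build with gene models from Ensembl. They counted uniquely mapped reads per gene with strand, and deposited these counts unnormalized, as whole numbers per gene and library. Unique counting removes reads shared by near-identical genes.

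All 6 columns were assigned to a genotype by name. The libraries were distinct, with a chi-square per degree of freedom of 10.8 or more between any pair. Genes with a count above 0 in any library (21681) were tested for KO against WT with edgeR 4.0.16 in R 4.3.3 (TMM factors, glmQLFit, glmQLFTest, Benjamini-Hochberg adjustment over all of them), and adjusted p-values are from this test unless another is named. Intervals are 95% intervals from the t distribution. With 3 libraries per genotype an exact permutation test cannot give a p below 0.1. Levels between genes used the union of exons in the GENCODE annotation of GRCm38, which held 98.9% of the genes. The floor of 3 counts covers counting error only, as reads carry no molecular identifiers. Alternatives were limma-voom (limma 3.58.1), DESeq2 1.42.0, library size only, upper-quartile factors, a fit restricted to protein-coding genes (16636), the filterByExpr filter (13811 genes), a minimum of 10 counts per library (13054 genes) and each library left out in turn. The code was tested on simulated counts.

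The members, pathway lists, markers and tests were chosen with earlier results of these data known. Values in every library are given for genes with an adjusted or unadjusted p below 0.05 and the 2 highest per kb in each role group. From the pathway lists, called genes and the gene with the smallest p of each list are named, and from the marker lists the keratinocyte genes, Ptprc and the most abundant gene of each other list. Further genes were singled out with their values in view. The symbols Il36a, Il36b and Il36g stand under older names in the table. Cxcr3 and Trdc were not analysed here, and protein sequences were not used here.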

Additional observations from a re-analysis of the deposited data

How the results depend on the processing

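No paired analysis was possible because the column names give each library's genotype without a sample number. Neither the study nor the sample labels describe a pairing of WT with KO mice, so none is known to have been lost. The count of called genes depended on the setting. Among the 40 genes it was 2, and 4 with DESeq2, 1 with library size only, and 0 with limma-voom, filterByExpr, at least 10 counts in every library or protein-coding genes only (16 at an unadjusted p below 0.05 in edgeR with all genes). It ran from 0 to 4 with 1 library left out (0 without KO a, WT b or WT c, 1 without KO c, 4 without KO b). Of the pathway genes 1 was called, 3 with DESeq2, 0 with limma-voom, filterByExpr, at least 10 counts or protein-coding genes only, and from 0 to 6 with 1 library left out (6 without WT a, 0 without KO a, KO c, WT b or WT c). Markers of other cell types gave 0 calls, 3 with DESeq2, and from 0 to 1 with a library left out (1 without KO b, WT a or WT b). Fewer genes were tested under the stricter filters. The cause of the changes between settings, those filters included, was not tested. With single libraries left out, 9 to 16 of the 40 had an unadjusted p below 0.05 (9 without KO a) and 15 to 22 did not overlap between groups (22 without WT c and 20 without KO b, where a group has 2 libraries). The median log2 fold change, 0.22, was 0.15 with at least 10 counts, 0.10 with filterByExpr, and 0.14 to 0.30 with a library left out. The median level of the 40, 6.30 CPM per kb, was 8.25 when the longest transcript gave the length. Tnf and Chil1 kept their direction in all 13 alternatives and were called in 4 and 6 of them.

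Of 42 genes followed one by one through the settings, which are not all the genes printed above, 7 changed sign in some setting. Of these, Krt19 had a log2 fold change of −0.28 with all libraries, and the other estimates lay between −0.06 and 0.04. With upper-quartile factors Il6st was at −0.00056, Trp63 at −0.0033 and Cd74 at −0.0051, and with limma-voom Krt5 was at 0.0040 and Ptprc at −0.11. With a library left out, Il6st ran from −0.069 to 0.094, Krt5 from −0.21 to 0.14, Trp63 from −0.071 to 0.087, Krt19 from −0.50 to 0.081, Itga6 from −0.16 to 0.027, Ptprc from −0.47 to 0.41 and Cd74 from −0.22 to 0.27. Other members of the 40, outside these 42 genes, changed sign with a library left out as well. Csf1 ran from −0.16 to 0.19, Il18 from −0.31 to 0.24 and Cxcl1 from −0.45 to 0.47. Tslp ran from −0.77 to 0.30, Il34 from −0.53 to 0.03 and Tnfaip2 from −0.08 to 0.21. Depth limits Il6, Il1b, Cxcl2 and Csf2 most, since each had under 20 counts in every library.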
